A study of Mus musculus with 6 samples.

Results

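Guidance genes encode the secreted and membrane-bound cues, and their receptors, that steer axons, migrating cells and growing vessels. They were collected from the deposited count table by symbol: the semaphorins of classes 3 to 7, the plexins, the neuropilins, the ephrins and Eph receptors, the Slits and Robo receptors, the netrins and the Unc5 receptors. This gave 70 rows of 48587, of which 67 were guidance genes and 3 were antisense transcripts of Plxna4 that share its symbol stem. Of the 70, 42 reached 1 cpm (the count scaled for library size) in at least 3 libraries and were tested with all other genes past that filter, 13166 in all.

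RNA came from 4T1 cells, a mouse mammary carcinoma line, in 3 libraries of 4T1-METTL7A1 cells and 3 libraries of mock cells. The former carried a stable insertion of the whole Mettl7a1 coding cDNA in the vector pBICEP-CMV-2, in which a CMV promoter drives expression, and were grown under the selective drug G418. The paper describes their METTL7A1 as FLAG-tagged and the mock cells as 4T1 cells stably transfected with the empty vector. Whether the 4T1 mock cells were also kept under G418 is not stated. Mettl7a1 encodes a methyltransferase-like protein, and its counts were 6355, 11358 and 10398 in the METTL7A1 libraries and 30, 30 and 29 in the mock libraries. The libraries of a group were described as biological triplicates, but whether the transfected cells were a pool or 1 clone is not given in the sources used here, so p values measure the spread between cultures and not between transfections.

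Total counts ranged from 18386780 to 28459338 per library. AY036118, a gene of the ribosomal RNA repeat, took between 0.502% and 13.1% of the counts of a library, with its lowest shares in METTL7A1 replicate 1 and mock replicate 3. Among the 42 tested guidance genes, mock replicate 3 was the lowest mock library for 27. All 6 mammary epithelial markers (Epcam, Krt8, Krt18, Cdh1, Cldn3 and Cldn7) passed the filter, with summed levels of 1590 to 1930 cpm in 4T1-METTL7A1 and 1470 to 1800 cpm in mock cells. Within that list, Cldn3 (log2 fold change 1.49, adjusted p = 1.96e-05) and Cldn7 (0.33, adjusted p = 0.0298) were called higher and the other 4 were not called.

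Semaphorins signal through plexins, and most secreted class 3 semaphorins need a neuropilin as the ligand-binding partner of the plexin. Ephrins are tethered to the membrane and activate the Eph receptor tyrosine kinases of a neighbouring cell, Slits bind Robo receptors, and netrins bind Dcc, neogenin and the Unc5 receptors. In the mammary gland, Slit2 with Robo1 and netrin-1 with neogenin are known for their part in the layering of the ducts, and several semaphorins and ephrins are known for effects on tumour cell migration and on tumour vessels.

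To find out how the expression of guidance genes differed between 4T1-METTL7A1 and mock cells, counts were compared by edgeR's quasi-likelihood test, and a gene was called when its p value, adjusted over all genes tested, was under 0.05. Of the 42 guidance genes tested, 31 were called (73.8%), against 42.1% of all genes tested. They divided almost evenly, with 15 higher in 4T1-METTL7A1 cells (21.1% of all genes tested were called higher) and 16 lower (21.0% of all genes). The median log2 fold change was -0.02 for the guidance genes and -0.03 for all genes, while the median size of the change, without its sign, was 0.53 and 0.25. The 3 METTL7A1 libraries did not overlap with the 3 mock libraries for 35 of the 42 (83.3%), and for 51.6% of all genes. The 35 include the 6 members, named below, whose groups the filter itself kept apart. At the study's thresholds, an adjusted p under 0.01 and a log2 fold change over 1.5 in either direction, 6 guidance genes remained (14.3%, against 2.48% of all genes). These were Slit2, Sema3c, Sema3b and Plxna4, which were lower, and Sema4f and Sema6c, which were higher. Of the 42, 6 (Slit2, Sema3a, Sema3b, Robo1, Sema4f and Sema6c) reached 1 cpm in the libraries of 1 group alone, so they passed the filter only through the group where they were high and had to differ. Among the 36 other members, 25 were called (69.4%, against 41.1% of the 12902 genes that reached 1 cpm in both groups) and 2, Sema3c and Plxna4, were past the study's thresholds (5.56%, against 1.35%). Ligands gave 9 higher and 10 lower calls among 24 tested, and receptors gave 6 and 6 among 18.

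**Figure D1:**
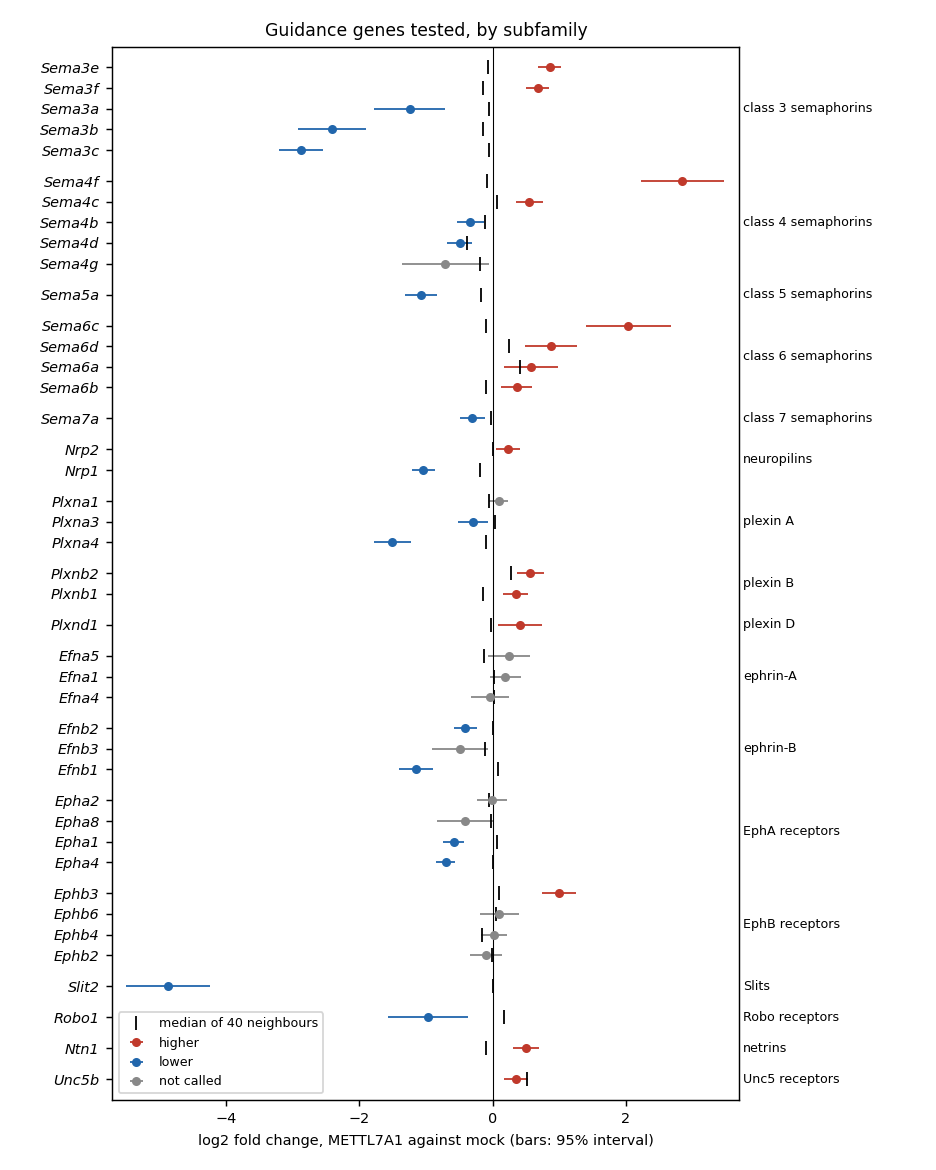
Log2 fold change of each of the 42 guidance genes tested (METTL7A1 against mock, 3 libraries each), grouped by subfamily, with bars for the 95% interval and a black tick for the median of its 40 nearest neighbours on the chromosome. The 4 class 6 semaphorins all lie to the right of 0, class 3 semaphorins lie on both sides, and Slit2 has the lowest value at -4.86.

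In what follows, the 3 values of a group are given in the order of replicates 1 to 3, in cpm, and log2 fold changes compare METTL7A1 with mock. For each of the 31 called genes all METTL7A1 libraries lay on the same side of all mock libraries. For the 6 that reached 1 cpm in 1 group alone, the filter had fixed this. The neighbour median was taken over the log2 fold changes of the 40 closest genes with an average log2 cpm over 2. It is given where it was more than 0.2 from 0.

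All 5 class 3 semaphorins tested were called, against 42.1% of all genes tested. The 2 abundant ones rose while the 3 scarce ones fell. Of the scarce ones, Sema3a and Sema3b were tested only because they reached 1 cpm in the mock libraries, so they had to differ. Sema3e, a secreted ligand that binds plexin D1 without a neuropilin, stood at 217, 247 and 231 cpm in 4T1-METTL7A1 cells and at 133, 134 and 118 cpm in mock cells. Its log2 fold change was 0.86 (SE 0.08, adjusted p = 1.53e-05). Sema3f, the main ligand of neuropilin-2, stood at 158, 158 and 145 cpm against 101, 101 and 86.5 cpm, a log2 fold change of 0.68 (SE 0.08, adjusted p = 7.09e-05). These rises were 1.81-fold and 1.6-fold, each well above the spread within a group.

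Sema3c, a class 3 semaphorin that can signal through either neuropilin, fell most within the class. It stood at 1.45, 1.79 and 2.03 cpm in 4T1-METTL7A1 cells and at 13.2, 13.4 and 12.3 cpm in mock cells, a log2 fold change of -2.86 (SE 0.15, adjusted p = 2.28e-07), that is, 7.28-fold lower. Sema3b, known as a tumour suppressor gene in human lung and breast cancer, stood at 0.593, 0.711 and 0.608 cpm against 4.05, 3.34 and 2.98 cpm, a log2 fold change of -2.41 (SE 0.23, adjusted p = 1.94e-05). Sema3a, the growth cone collapsing ligand of neuropilin-1, stood at 0.916, 0.779 and 0.649 cpm against 2.02, 1.82 and 1.69 cpm, and its log2 fold change was -1.24 (SE 0.24, adjusted p = 0.00192). Every METTL7A1 library was below every mock library for Sema3c. The same holds for Sema3a and Sema3b, but there the filter had already kept the groups apart.

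On a scale that allows comparison between genes, cpm per kilobase of exon (RPKM), the rises outweighed the falls. The summed level of class 3 semaphorins was 78.5 ± 3.15 RPKM in 4T1-METTL7A1 and 50 ± 4.0 RPKM in mock cells (SD, n = 3). Sema3f held 56.1% ± 1.92 of that sum in 4T1-METTL7A1 and 55.2% ± 0.441 in mock cells. The share of Sema3e was 43.0% ± 1.86 against 37.4% ± 0.347, and that of Sema3c was 0.409% ± 0.0726 against 4.74% ± 0.181 (SD, n = 3 throughout). The 2 remaining members of the class were under the filter. One of them, Sema3d, singled out after its values were seen, had 0, 1 and 4 counts in the METTL7A1 libraries and 12, 20 and 16 in the mock libraries, so that its groups did not overlap either.

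The promoters of the members past the study's thresholds are shown because these genes differ most and their start regions differ in CpG content. The windows are those of RefSeq (GRCm38.p6, the build of the count table), from 250 bases before to 50 bases after the annotated start, and exist here for 58 of the 70 members, among them 35 of those tested. Sema3b and Plxna4 had none. The start used for Sema3c lies 535 bases from the start of that gene in the count table. Each is printed 5′ to 3′ on the strand of the gene, with every CG dinucleotide in capitals. The Sema3c window (chr5:17574566-17574865, plus strand) held 42 CG dinucleotides, and only 3.03% of all 32851 windows hold as many.
Sema3c: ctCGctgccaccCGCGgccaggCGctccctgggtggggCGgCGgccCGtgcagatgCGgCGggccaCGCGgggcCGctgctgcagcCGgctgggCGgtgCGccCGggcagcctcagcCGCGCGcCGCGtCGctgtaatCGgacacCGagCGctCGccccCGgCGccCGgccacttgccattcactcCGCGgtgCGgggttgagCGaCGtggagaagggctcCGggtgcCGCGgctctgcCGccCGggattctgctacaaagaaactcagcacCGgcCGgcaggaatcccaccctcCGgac
The Slit2 window (chr5:47982905-47983204, plus strand) held 30, a number reached by 11.7% of windows, and the letters TATAAA.
Slit2: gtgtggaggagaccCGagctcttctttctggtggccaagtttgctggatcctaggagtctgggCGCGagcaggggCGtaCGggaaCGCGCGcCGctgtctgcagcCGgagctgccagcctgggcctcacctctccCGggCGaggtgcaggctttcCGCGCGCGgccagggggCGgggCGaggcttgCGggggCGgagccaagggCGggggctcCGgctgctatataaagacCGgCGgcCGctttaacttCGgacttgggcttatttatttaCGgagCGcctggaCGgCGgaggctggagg
The Sema6c window (chr3:95160170-95160469, plus strand), 1 of 2 for this gene, held 23.
Sema6c: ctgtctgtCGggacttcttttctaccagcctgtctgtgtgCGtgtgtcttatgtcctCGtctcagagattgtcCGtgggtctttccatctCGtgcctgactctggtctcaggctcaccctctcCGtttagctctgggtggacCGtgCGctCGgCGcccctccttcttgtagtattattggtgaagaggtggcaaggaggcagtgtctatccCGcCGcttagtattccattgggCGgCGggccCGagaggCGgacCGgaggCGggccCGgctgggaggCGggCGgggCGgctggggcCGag
The Sema4f window (chr6:82939720-82940019, minus strand) held 7, the median over all windows, and the letters CACCTG.
Sema4f: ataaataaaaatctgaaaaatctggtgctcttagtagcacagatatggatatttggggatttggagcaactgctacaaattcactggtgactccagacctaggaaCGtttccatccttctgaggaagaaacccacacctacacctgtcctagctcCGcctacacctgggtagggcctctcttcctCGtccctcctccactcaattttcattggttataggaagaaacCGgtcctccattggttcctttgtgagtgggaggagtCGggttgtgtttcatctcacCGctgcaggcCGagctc

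Across the 35 tested members with a window the median was 23 CG dinucleotides, with 23 for the 12 called higher, 17.5 for the 14 called lower and 24 for the 9 not called. The windows of Plxnb2 (called higher) and Sema4d (called lower) had starts 2831 and 37064 bases from those in the count table. Counting both strands, GGGCGG, the core of a GC box, was found in 80.0% of these 35 windows and in 35.7% of all windows. TATAAA was found in 5.71% and 13.6%, and CACCTG, an E-box, in 20% and 20.2%. The set of all windows is not limited to genes expressed here, and no share was taken for the other tested genes. Among the 23 windows of members under the filter, GGGCGG was found in 60.9%. A match in such a window describes the sequence and was not tied to the binding of any factor.

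Class 4 semaphorins, which span the membrane and bind mainly B-type plexins, moved in both directions, with 2 of the 5 tested higher, 2 lower and 1 not called. Among all genes tested, 21.1% were called higher and 21.0% lower. Sema4f stood at 2.53, 2.81 and 2.76 cpm in 4T1-METTL7A1 cells and at 0.547, 0.248 and 0.362 cpm in mock cells. Its log2 fold change of 2.84 (SE 0.28, adjusted p = 2.22e-05), or 7.16-fold, was the largest rise of any guidance gene tested, in a gene that entered the test only through the METTL7A1 libraries. Sema4c, a ligand of plexin B2, stood at 31.4, 35.1 and 28.5 cpm against 22.5, 22.1 and 20.4 cpm, a log2 fold change of 0.55 (SE 0.09, adjusted p = 0.00078).

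Sema4d, the classical ligand of plexin B1, fell by 0.50 on the log2 scale (SE 0.08, adjusted p = 0.000693), from 32.2, 32.4 and 34.5 cpm in mock cells to 22.7, 22.1 and 25.5 cpm. Its neighbours on chromosome 13 had a median of -0.38, and after this was subtracted the difference was -0.12 (adjusted p = 0.321). Sema4b stood at 45.5, 44.1 and 43.9 cpm against 63.1, 57.2 and 48.6 cpm, a log2 fold change of -0.34 (SE 0.09, adjusted p = 0.0122) that was not called without mock replicate 1 or after the same subtraction. Sema4g had a log2 fold change of -0.71 (SE 0.30, adjusted p = 0.0793), and its groups overlapped through METTL7A1 replicate 1.

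Sema5a was the 1 class 5 semaphorin tested and Sema7a the class 7 semaphorin. Sema5a, a membrane protein with thrombospondin repeats, stood at 7.81, 9.75 and 8.60 cpm in 4T1-METTL7A1 cells and at 18, 19.2 and 18.2 cpm in mock cells, a log2 fold change of -1.07 (SE 0.11, adjusted p = 2.3e-05). Sema7a, which is anchored by a lipid and binds plexin C1 and integrins, stood at 20.3, 22.0 and 23.5 cpm against 26.5, 28.6 and 26.5 cpm. Its log2 fold change was -0.31 (SE 0.08, adjusted p = 0.0132), and the call was lost without METTL7A1 replicate 2 or mock replicate 2. Its receptor Plxnc1 was under the filter, with 6, 11 and 13 counts in the METTL7A1 libraries and 4, 4 and 3 in the mock libraries.

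Class 6 semaphorins, membrane ligands of A-type plexins that can also act as receptors, were all tested and all called higher, as were both B-type plexins tested. Of all genes tested, 21.1% were called higher. Sema6c stood at 1.35, 1.52 and 1.38 cpm in 4T1-METTL7A1 cells and at 0.437, 0.289 and 0.322 cpm in mock cells, a log2 fold change of 2.04 (SE 0.29, adjusted p = 0.000247), and passed the filter only through the METTL7A1 libraries. Sema6d, a ligand of plexin A1, stood at 4.69, 5.04 and 4.14 cpm against 2.46, 2.85 and 2.21 cpm, a log2 fold change of 0.88 (SE 0.18, adjusted p = 0.00227), with a neighbour median of 0.24. Both kept their call in every alternative in which they were tested.

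The other two class 6 members changed less. Sema6b stood at 26.4, 31.2 and 29.4 cpm against 25.1, 23.4 and 19.4 cpm, a log2 fold change of 0.36 (SE 0.11, adjusted p = 0.0179) that was not called without METTL7A1 replicate 2. Sema6a stood at 3.45, 3.76 and 3.77 cpm against 2.35, 2.15 and 2.86 cpm, with a log2 fold change of 0.58 (SE 0.18, adjusted p = 0.0263) beside a neighbour median of 0.41. With that median subtracted the difference was 0.16 (adjusted p = 0.545), and the call was lost in 7 of 15 alternatives. Summed over the class, the level was 8.79 ± 0.681 RPKM in 4T1-METTL7A1 and 6.48 ± 0.736 RPKM in mock cells (SD, n = 3).

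**Figure D2:**
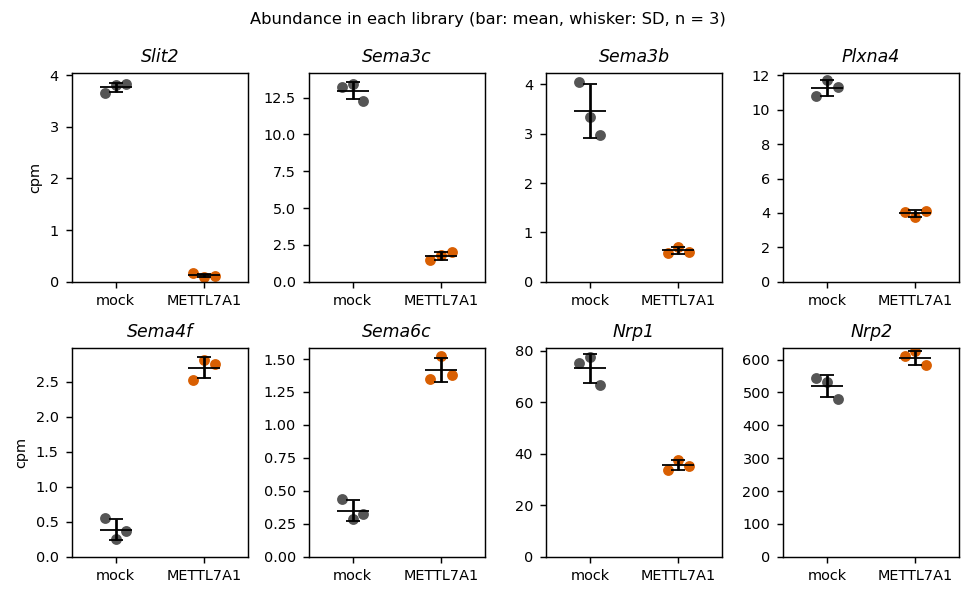
Abundance in cpm in each library for the 6 guidance genes past the study's thresholds and for the neuropilins, with mock libraries in grey, METTL7A1 libraries in orange, a bar for the mean and a whisker for the SD (n = 3). No group overlaps the other in any panel, but for Slit2, Sema3b, Sema4f and Sema6c the filter itself had kept the groups apart. Sema3c and Plxna4 were chosen for the size of their change. The gap for Nrp2 (544 cpm in the highest mock library and 583 cpm in the lowest METTL7A1 library) is small beside its level.

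The neuropilins, the co-receptors of class 3 semaphorins and of vascular endothelial growth factor, went in opposite directions. Nrp1 stood at 33.8, 37.6 and 35.2 cpm in 4T1-METTL7A1 cells and at 75, 77.4 and 66.7 cpm in mock cells, a log2 fold change of -1.04 (SE 0.08, adjusted p = 3.32e-06). Nrp2 stood at 610.0, 625 and 583 cpm against 544, 531 and 481 cpm, a log2 fold change of 0.22 (SE 0.08, adjusted p = 0.0466). That small rise was close to the threshold and was not called in 5 of 15 alternatives, among them the omission of mock replicate 3.

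Per length, Nrp2 was the more abundant neuropilin in both groups, at 58.4 ± 2.06 RPKM in 4T1-METTL7A1 and 50 ± 3.24 RPKM in mock cells. Nrp1 stood at 9.88 ± 0.544 and 20.3 ± 1.57 RPKM (SD, n = 3). The share of Nrp1 in the sum of both was 13.8%, 14.8% and 14.8% in the METTL7A1 libraries and 28.4%, 29.6% and 28.6% in the mock libraries. Their sum was 68.2 ± 2.38 RPKM and 70.3 ± 4.71 RPKM, a difference within the spread of the mock libraries.

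Plexins carry the signal of semaphorins into the cell through a domain that acts on small GTPases. Of the A-type plexins, Plxna4, a receptor used by class 3 semaphorins with neuropilin-1 and by class 6 semaphorins directly, fell from 10.8, 11.7 and 11.3 cpm in mock cells to 4.04, 3.76 and 4.14 cpm. Its log2 fold change of -1.50 (SE 0.12, adjusted p = 5.53e-06) lay at the edge of the study's threshold and ranged from -1.54 to -1.40 over the alternatives. Plxna3 stood at 27.8, 25.3 and 22.7 cpm against 34.7, 28.3 and 29.5 cpm, a log2 fold change of -0.29 (SE 0.10, adjusted p = 0.0417), and was not called in 6 of 15 alternatives. Plxna1 was the most abundant A-type plexin (16.0 and 15.1 RPKM), with a log2 fold change of 0.09 (adjusted p = 0.284).

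Both B-type plexins tested were higher, as were 21.1% of all genes tested. Plxnb2, the receptor of Sema4c, stood at 666, 712 and 675 cpm in 4T1-METTL7A1 cells and at 497, 483 and 407 cpm in mock cells, a log2 fold change of 0.57 (SE 0.09, adjusted p = 0.000619), with a neighbour median of 0.28. Plxnb1, the receptor of Sema4d, stood at 117, 105 and 93.8 cpm against 87.8, 78.9 and 81.6 cpm, and its log2 fold change was 0.35 (SE 0.09, adjusted p = 0.00828). Plxnd1, the receptor of Sema3e, stood at 4.85, 5.55 and 5.31 cpm against 4.26, 3.67 and 3.94 cpm, a log2 fold change of 0.41 (SE 0.15, adjusted p = 0.0446) that was lost in 8 of 15 alternatives. Plxnb2 made up 89.7% ± 1.17 of the summed B-type plexin level in 4T1-METTL7A1 and 88.2% ± 1.08 in mock cells, and that sum was 118 ± 3.79 against 81.3 ± 7.67 RPKM (SD, n = 3).

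Among the ephrins, 2 of the 3 transmembrane B-type ligands were called and lower, and none of the 3 lipid-anchored A-type ligands tested was called. For comparison, 42.1% of all genes tested were called and 21.0% were called lower, and these sets of 3 are small. Efnb1 stood at 9.92, 10.7 and 9.85 cpm in 4T1-METTL7A1 cells and at 24.2, 24.6 and 18.8 cpm in mock cells, a log2 fold change of -1.15 (SE 0.12, adjusted p = 2.7e-05). Efnb2, the ligand of Ephb4 in the separation of arteries and veins, stood at 73.9, 77.8 and 85.2 cpm against 106, 111 and 97.2 cpm, a log2 fold change of -0.41 (SE 0.08, adjusted p = 0.00175). Efnb3 had a log2 fold change of -0.49 (SE 0.19, adjusted p = 0.0566), without overlap between groups. The summed B-type ephrin level was 20.8 ± 1.03 RPKM in 4T1-METTL7A1 and 30.5 ± 2.28 RPKM in mock cells (SD, n = 3).

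The log2 fold changes of the A-type ephrins were 0.19 for Efna1, -0.04 for Efna4 and 0.25 for Efna5, with 95% intervals from -0.04 to 0.42, from -0.33 to 0.25 and from -0.06 to 0.55. Values of the 2 groups overlapped for each of them. Without mock replicate 3, Efna5 was called, at 0.37 (adjusted p = 0.0496).

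Eph receptors were called in 3 of 8 cases, a share near the 42.1% of all genes tested. Epha4, which binds ephrins of both types, stood at 51.8, 49.6 and 50.1 cpm in 4T1-METTL7A1 cells and at 82.7, 82.1 and 82.1 cpm in mock cells, a log2 fold change of -0.70 (SE 0.06, adjusted p = 1.04e-05). Epha1 stood at 34.0, 36.8 and 38.7 cpm against 56.9, 54.9 and 52.9 cpm, a log2 fold change of -0.59 (SE 0.07, adjusted p = 0.000111). Epha1 shares 396 exon bases with Zyx, the gene of the adhesion protein zyxin on the opposite strand, which was lower by a similar amount (log2 fold change -0.64, SE 0.07). Its reads are kept apart from those of Zyx only if strand was used in counting, which the study's methods do not state. For another nested pair on opposite strands, AY036118 inside Gm42418, the inner gene had the larger count in every library, which counting without strand could not give.

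Ephb3, a receptor of B-type ephrins known from the gut epithelium, was the 1 Eph receptor that rose. It stood at 19.4, 19.6 and 21.4 cpm in 4T1-METTL7A1 cells and at 11.3, 10.5 and 8.57 cpm in mock cells, a log2 fold change of 1.00 (SE 0.11, adjusted p = 5.62e-05). Its share of the summed EphB level was 16.3% ± 0.651 against 8.97% ± 0.276, while that of Ephb4 was 70.8% ± 0.642 against 76.5% ± 0.668 (SD, n = 3).

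Epha2, a receptor of ephrin-A1 and the most abundant guidance gene per length, was at 165 ± 6.75 RPKM in 4T1-METTL7A1 and 166 ± 22.4 RPKM in mock cells (SD, n = 3), and its log2 fold change was -0.01 (95% interval -0.24 to 0.22). The other Eph receptors not called were Ephb4 (0.03), Ephb6 (0.10), Ephb2 (-0.10) and Epha8 (-0.41, adjusted p = 0.11) in log2 fold change. For Epha8 and Ephb6, as for Plxna1 and Efnb3, the groups did not overlap although the gene was not called.

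Slit2, which entered the test only through the mock libraries, had the largest log2 fold change of the guidance genes tested. The secreted Slit2, whose receptor is Robo1, had 3, 3 and 3 counts in the METTL7A1 libraries and 67, 92 and 95 counts in the mock libraries, or 0.162, 0.102 and 0.122 cpm against 3.66, 3.80 and 3.82 cpm. Over the libraries of a group, 9 counts stood against 254, a depth-scaled ratio of mock to METTL7A1 of 30.5 (95% interval 15.8 to 67.4, for counting error only). The fitted log2 fold change was -4.86 (SE 0.29, adjusted p = 5.86e-07), which at such low counts depends on the small count that the fit adds to each library. Slit2 was left out by a filter of 10 counts in every library and kept its call in the 14 other alternatives.

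Robo1, the receptor, stood at 0.593, 0.745 and 0.527 cpm in 4T1-METTL7A1 cells and at 1.31, 1.07 and 1.33 cpm in mock cells. Its log2 fold change was -0.97 (SE 0.27, adjusted p = 0.0141), and the call was lost with DESeq2 and without METTL7A1 replicate 3. Like Slit2, it reached 1 cpm in mock libraries alone. Both genes were thus scarce in 4T1 cells: the 3 Slits summed to 0.38 ± 0.015 RPKM and the 4 Robo receptors to 0.167 ± 0.0224 RPKM in mock cells, against 0.019 ± 0.0028 and 0.108 ± 0.0294 RPKM in 4T1-METTL7A1 cells (SD, n = 3).

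Netrin-1 and its receptor Unc5b were both higher. Ntn1 stood at 48.5, 56.2 and 57.2 cpm in 4T1-METTL7A1 cells and at 40.8, 38.7 and 34.8 cpm in mock cells, a log2 fold change of 0.51 (SE 0.09, adjusted p = 0.000907). Unc5b, a receptor that triggers apoptosis when netrin-1 is lacking, stood at 185, 204 and 210.0 cpm against 163, 165 and 142 cpm, a log2 fold change of 0.35 (SE 0.08, adjusted p = 0.00613). The neighbours of Unc5b on chromosome 10 had a median of 0.52, and with this subtracted the difference was -0.17 (adjusted p = 0.147), that is, of the opposite sign. Among guidance genes, Unc5b was the 1 call that changed sign in any alternative.

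Among the 42 guidance genes tested, levels per length ran from Epha2 down to Slit2 (0.0128 RPKM) in 4T1-METTL7A1 cells and down to Sema6c (0.086 RPKM) in mock cells. In 4T1-METTL7A1 cells, Epha2 (165 ± 6.75 RPKM) was followed by Plxnb2 (106 ± 3.86), Nrp2 (58.4 ± 2.06), Sema3f (44.0 ± 2.14), Unc5b (34.1 ± 2.23) and Sema3e (33.8 ± 2.14), all in RPKM (SD, n = 3). In mock cells the order was Epha2 (166 ± 22.4), Plxnb2 (71.7 ± 7.46), Nrp2 (50 ± 3.24), Sema3f (27.6 ± 2.41), Unc5b (26.8 ± 2.21) and then Efnb2 (21.9 ± 1.46). Neither Unc5b and Sema3e in 4T1-METTL7A1 cells nor Sema3f and Unc5b in mock cells differed beyond their spread, and Efnb2 was within the spread of Ephb4 (20.6 ± 2.43) and Nrp1 (20.3 ± 1.57) in mock cells.

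**Figure D3:**
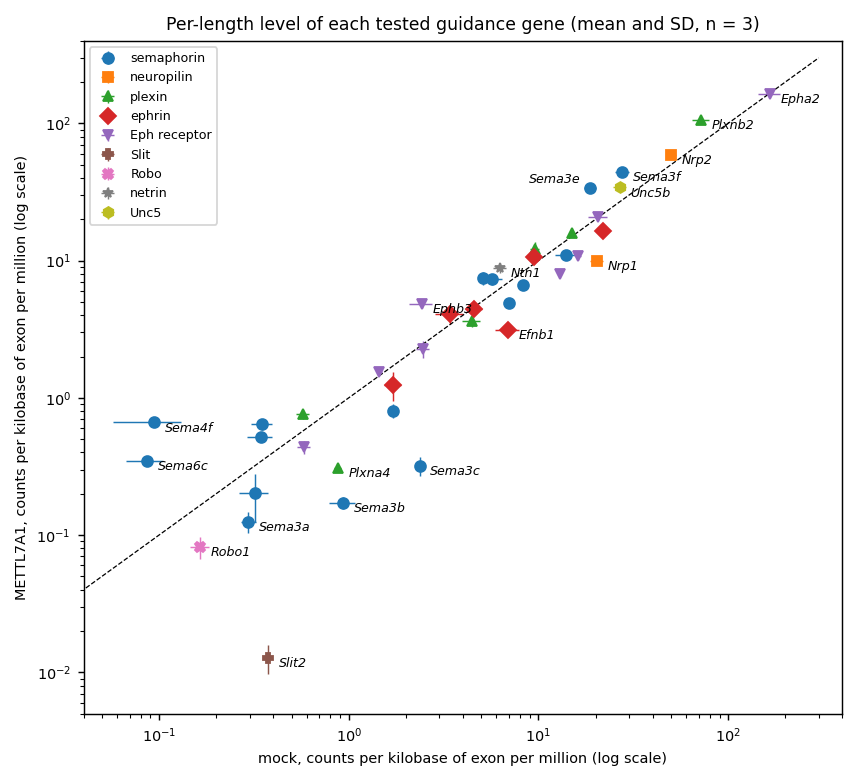
Mean per-length level of the 42 guidance genes tested in mock (horizontal) and 4T1-METTL7A1 cells (vertical), both on log axes in RPKM, with bars for the SD (n = 3), a symbol for each family and a dashed line of equal level. Most genes lie close to the line, Nrp1 lies below it (9.88 against 20.3), and the points farthest from it, Slit2, Sema3c, Sema3b, Sema4f and Sema6c, are below 3 RPKM in both groups.

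The remaining 28 members were under the filter and were not tested. Of these, 5 had no count in any library, 23 (these included) had at most 5 counts in every library, and the highest count of any of them was 25. The Plxna4 antisense transcripts Plxna4os1, Plxna4os2 and Plxna4os3 had at most 2 counts each. Zero counts do not show absence: the largest share that a count of 0 allows, taken as 3 counts, was between 0.105 and 0.163 cpm in these libraries.

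Several guidance genes are neighbours on a chromosome, which allowed pairs at the same place to be compared. Sema3d, Sema3a (chr5:13396784-13602565), Sema3e (chr5:14025276-14256689) and Sema3c (chr5:17574281-17730268) follow each other on chromosome 5 of mm10, with gaps of 808, 423 and 3320 kb. Along this row the log2 fold change was -1.24 for Sema3a, 0.86 for Sema3e and -2.86 for Sema3c, and the 33 other genes tested within 5 Mb had a median of -0.06 (quartiles -0.28 and 0.17). The 1 gene with a test between Sema3e and Sema3c, Pclo, which encodes a presynaptic scaffold protein and was picked out after its values were seen, had 1, 0 and 0 counts in the METTL7A1 libraries and 49, 50 and 104 in the mock libraries. On chromosome 9, Sema3b (chr9:107598217-107609229) and Sema3f (chr9:107681500-107710475) lie 72.3 kb apart and changed in opposite directions (-2.41 and 0.68), among 130 other genes with a median of -0.17.

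**Figure D4:**
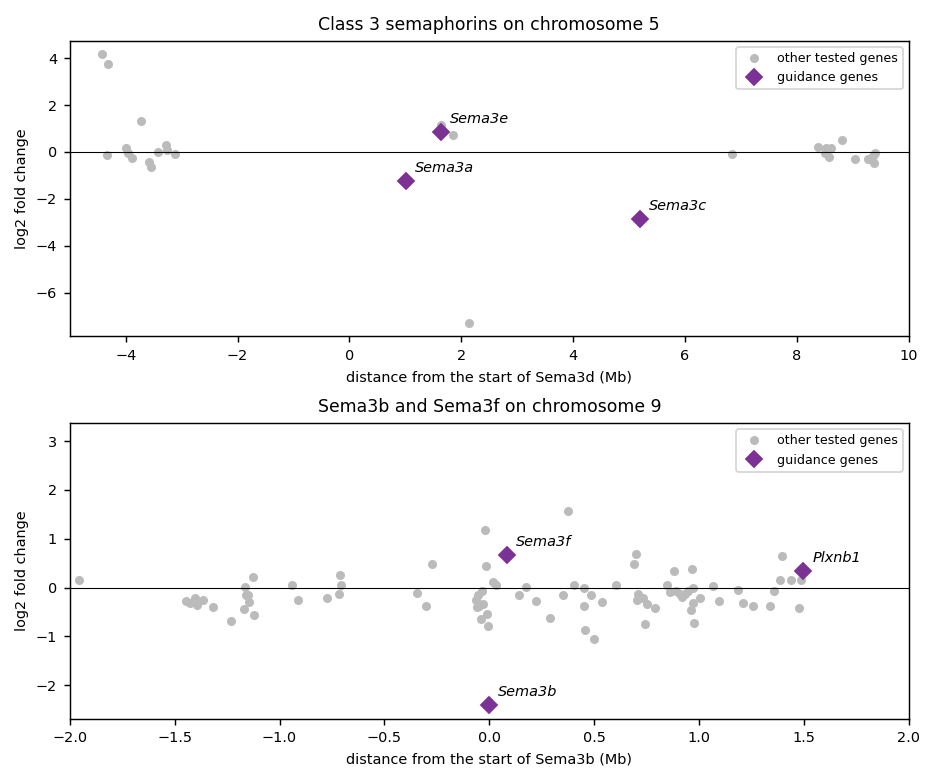
Log2 fold change (METTL7A1 against mock) of each gene tested by its distance in Mb from Sema3d on chromosome 5 (top) and from Sema3b on chromosome 9 (bottom), with guidance genes as purple diamonds and other genes as grey points. Sema3e (0.86) lies above and Sema3a (-1.24) and Sema3c (-2.86) lie below the median of the other genes (-0.06), Sema3d itself was not tested, and the lowest grey point on chromosome 5 is Pclo, at 1 count in all METTL7A1 libraries together.

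Among 7 tested transcripts of the annotation that lie within 4 members on the same strand, singled out after their values were seen, 5 were called (42.1% of all genes tested were), and for those the direction was that of the member. Within Sema3e (log2 fold change 0.86), Gm43519 had 1.15 (SE 0.18, adjusted p = 0.000489) and Gm43523 had 0.71 (SE 0.26, adjusted p = 0.0446). Within Efnb2 (-0.41), E230020D15Rik had -0.55, Gm45073 had -0.55 and Gm45074 had -0.64 (adjusted p = 0.0255, 0.03 and 0.00338). For 5 of the 7 the groups overlapped, while for 51.6% of all genes tested they did not. For all 7, METTL7A1 replicate 1 was the highest library of its group and mock replicate 3 the highest of the other. These are the libraries in which AY036118 had its lowest shares (0.502% and 0.966%). The part of that difference between libraries in these results was not tested.

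Other genes of the guidance pathways were taken from a list of 65 co-receptors, further ligands and cytoplasmic transducers. Of the 47 tested, 14 were higher and 8 were lower (46.8% called, against 42.1% of all genes tested), with a median log2 fold change of 0.04 against -0.03. Without METTL7A1 replicate 2 the number called fell from 22 to 14. Co-receptors, further ligands and the sheddase Adam10 gave 3 higher and 1 lower of 11 tested, and transducers 11 higher and 7 lower of 36. The largest rises were those of Srgap3, a GTPase-activating protein that binds Robo (0.77), Rras, a small GTPase on which plexins act (0.67), Rnd1, a GTPase that binds plexins (0.56, neighbour median 0.26), and Mical2, an actin-oxidising enzyme (0.56), as log2 fold changes.

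The largest falls were those of Chn2, Flrt3, Rasa1 and Farp1. Chn2 is a GTPase-activating protein of the chimaerin family. It had 4, 1 and 2 counts in the METTL7A1 libraries and 107, 125 and 150 in the mock libraries. Chn2 reached 1 cpm in the mock libraries alone, so it passed the filter only through the group where it was high and had to differ. Its fitted log2 fold change was -5.79 (SE 0.35, adjusted p = 6.61e-07). Flrt3, a membrane protein that binds Robo1 and Unc5 receptors, stood at 7.71, 8.46 and 7.30 cpm against 20.4, 25.7 and 19.4 cpm (log2 fold change -1.48, SE 0.13). Rasa1, a Ras GTPase-activating protein that can bind EphB receptors, had -0.68 and Farp1, a partner of A-type plexins, had -0.44, with neighbour medians of -0.31 and -0.27. Of the netrin receptors besides the Unc5 family, Neo1 had a log2 fold change of -0.11 (95% interval -0.27 to 0.05, adjusted p = 0.266) at 175 ± 8.13 cpm and 189 ± 11.3 cpm (SD, n = 3), and Dcc was under the filter with 2, 3 and 1 counts against 0 in each mock library.

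Guidance genes are also expressed by other cells of a tumour, so markers of those were listed beside the results. Of 6 endothelial markers none passed the filter, with summed levels of 1.58 to 1.69 cpm in 4T1-METTL7A1 and 0.82 to 1.09 cpm in mock cells. Of 6 leukocyte markers, 2 were at 0 in every library and 1, Cd68, passed the filter, and the sum was 11.6 to 14.1 cpm against 4.92 to 6.32 cpm. Most of that sum was Cd68, at 11.3, 13.2 and 13.8 cpm against 4.65, 5.49 and 6.16 cpm. Cd68 was called higher (log2 fold change 1.23, adjusted p = 5.05e-05). Of 6 fibroblast and mural cell markers only Pdgfra passed (sum 24.0 to 26.9 against 17.8 to 19.8 cpm). Pdgfra was also called higher (log2 fold change 0.47, adjusted p = 0.00177). In such bulk libraries, fewer cells that express a gene and less RNA of that gene per cell cannot be told apart, and this holds for every value given here.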

How the data were processed

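Total RNA of 6 libraries (3 METTL7A1, 3 mock, grouped by the sample titles) was depleted of ribosomal RNA, made into stranded libraries and sequenced. The authors trimmed reads with BBDuk, aligned them to mm10 with STAR (version 2.5.3a in the submitters' processing notes) and assigned them to Ensembl genes with featureCounts. The deposited values are whole-number counts without normalization. Per the file headers, the same table gives the total exon length of each gene, an annotation value used only for RPKM.

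Genes with at least 1 cpm in at least 3 libraries were kept (13166). METTL7A1 was compared with mock by the quasi-likelihood test of edgeR 4.0.16 in R 4.3.3 with TMM scaling and no covariate, and p values were adjusted by the Benjamini-Hochberg method over all of these genes. Cpm and RPKM use TMM-scaled library sizes. The SE was the size of the log2 fold change divided by the square root of F. The study's thresholds were read as log2 values. Every tested member was named, those called with the value in each library, members under the filter by name where a library reached 1 cpm or no member of the subfamily was tested, and of the partner list the 4 largest called rises and falls with Dcc and Neo1. Sema3d, Pclo and the transcripts within members were chosen after their values were seen. The members, lists and alternatives were chosen with earlier results of these data known.

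Alternatives were RLE and upper quartile scaling, no filter, at least 10 counts in every library, DESeq2 1.42.0, limma 3.58.1 voom, removal of the 20 most abundant genes, a replicate block, omission of each library (on the same genes), subtraction of the median of 40 chromosome neighbours, glmTreat and a 1.5-fold linear threshold. The fit was tested on simulated data first. A further marker list is not reported here.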

Additional observations from a re-analysis of the deposited data

How the results depend on the processing

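The number of guidance genes called, 31, was between 25 and 33 when 1 library was left out and between 26 and 32 in the other alternatives. Of the 31, 21 kept their call in every alternative in which they were tested. Over 627 values of single members, 577 kept direction and side of the threshold, 34 lost and 4 gained the call, and 12 changed sign. The number past the study's thresholds, 6, became 2 with at least 10 counts in every library (where Slit2, Sema4f and Sema6c were not tested and Plxna4 stood at -1.4986), 3 with glmTreat and 16 with a 1.5-fold linear threshold, as these change the genes or the threshold. It was 5 or 6 elsewhere, and 5 to 6 when 1 library was left out. Called partners, 22, ranged from 14 (without METTL7A1 replicate 2) to 26 when 1 library was left out. The Mettl7a1 log2 fold change stayed between 7.91 and 8.33. Among uncalled members, the sign changed for Epha2 with no filter (0.0283), without the 20 most abundant genes (0.0299), with the neighbour subtraction (0.0388) and when 1 library was left out (-0.10 to 0.10), for Efna4 without the 20 most abundant genes (0.0005) and when 1 library was left out (-0.0986 to 0.0534), and on omission of 1 library for Ephb2 (-0.179 to 0.0127) and Ephb4 (-0.0562 to 0.1115). Of called members only Unc5b changed sign (-0.17 with the neighbour subtraction). The cause of these changes was not tested.

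The replicate numbers were not found to pair the libraries, since deviations of same-numbered libraries from their group means correlated at -0.16, 0.23 and -0.39. With the replicate block, 28 guidance genes were called, 12 higher and 16 lower, without Nrp2, Plxnd1 and Sema6a, and 18 partners were called.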
